A study of Mus musculus with 11 samples.

Results

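The genes described here make, assemble and carry mucosal antibody. They are the heavy chain constant genes of IgA (Igha) and IgM (Ighm), the kappa light chain constant gene Igkc, the joining chain Jchain, the plasma cell chaperone Mzb1, the B cell receptor signalling subunits Cd79a and Cd79b, and the epithelial immunoglobulin receptor Pigr. They are 8 named genes of 34866 in the table, matched by gene symbol, and they were chosen with their levels in these samples already known. Their levels and fold changes are therefore given as description. Calls of the fit over all genes are counted for them beside the share of all genes called, and nothing is read from those counts. Of the 8, 5 passed the filter on low counts and 3 (Mzb1, Cd79a and Cd79b) did not.

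Bulk RNA from mouse gastric corpus mucosa was sequenced in 11 samples of 4 genotypes: 2 of WT, and 3 each of the lines GIF/ATP4B-DTR, GIF-DTR and ATP4B-DTR. DTR is the diphtheria toxin receptor, which makes mouse cells sensitive to the toxin. The lines are named for Atp4b, a proton pump subunit of acid-secreting parietal cells, and for Gif, the intrinsic factor gene of enzyme-secreting chief cells, and GIF/ATP4B-DTR is named for both. They were built to remove those cells. The labels give the genotype of each sample but no toxin dose, time of collection, strain, age or sex, and do not state the promoter that drives the receptor or whether WT mice received toxin. Nothing in the labels says that the samples of a group were separate animals, so a p-value measures only the spread between these samples.

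In the gut and stomach wall, plasma cells of the lamina propria secrete IgA as dimers held together by the joining chain. The epithelial receptor encoded by Pigr binds that chain on the basal side of the cell, carries the dimer across and releases it at the lumen with a piece of the receptor attached. Plasma cells have largely stopped making the B cell surface receptor, so antibody genes mark plasma cells and genes such as Cd79a and Cd79b mark B cells more broadly.

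Libraries held 20.7 to 27.9 M counts. Levels are TMM-scaled counts per M counts (CPM; TMM, the trimmed mean of M-values, sets the scale of each library), and 3 counts, the limit used here for detection, corresponded to 0.107 to 0.166 CPM. The targeted genes matched the labels: Atp4b averaged 4575 ± 298 CPM (SD, n = 2) in WT, 599 ± 110 CPM (n = 3) in ATP4B-DTR, 2797 ± 667 CPM (n = 3) in GIF-DTR and 290 ± 160 CPM (n = 3) in GIF/ATP4B-DTR. Gif averaged 1503 ± 1132, 637 ± 267, 146 ± 70.7 and 125 ± 80.8 CPM in the same order. The Y-linked gene Ddx3y was present in both WT samples, in ATP4B-DTR 1 and in all 3 GIF/ATP4B-DTR samples, and at or near 0 in ATP4B-DTR 2 and 3 and in all GIF-DTR samples. The GIF-DTR genotype and the absence of Y-linked transcripts therefore cannot be told apart, either against WT or against GIF/ATP4B-DTR. Only within ATP4B-DTR did samples of a genotype differ in Y-linked transcripts. A fit with Y-linked expression as a covariate thus takes its effect from ATP4B-DTR 1 against ATP4B-DTR 2 and 3 alone.

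Antibody transcripts were abundant in 1 sample of the 11. All immunoglobulin genes together summed to 38.8 CPM in WT 1 and 615 CPM in WT 2. The 3 ATP4B-DTR samples held 2.33, 1.84 and 2.53 CPM and the 3 GIF-DTR samples 29.1, 3.19 and 5.20 CPM. The GIF/ATP4B-DTR samples held 0.605, 13.0 and 0.641 CPM. WT 2 alone held 92.8% of the immunoglobulin counts of its group, GIF-DTR 1 held 74.4% of those of its group and GIF/ATP4B-DTR 2 held 90.2%, whereas the top ATP4B-DTR sample held 39.9%. Each of the 32 immunoglobulin genes with more than 30 counts in all was highest in WT 2. Because this is bulk tissue, fewer plasma cells and less antibody RNA per plasma cell cannot be told apart.

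Igha (ENSMUSG00000095079.6; GRCm38 chr12:113254830-113260236, minus strand), the constant region that defines IgA, had 369 and 5006 counts in WT 1 and 2, or 16.6 and 278 CPM. ATP4B-DTR samples 1 to 3 had 0.791, 0.263 and 0.580 CPM, and GIF-DTR samples 1 to 3 had 14.9, 0.629 and 1.71 CPM. In GIF/ATP4B-DTR 1 to 3 it stood at 0.0403, 8.21 and 0.142 CPM, the first of these from a single count. Both WT samples lay above all 9 samples of the lines, but WT 1 was only just above GIF-DTR 1, and the 3 lines overlapped one another. The 2 WT samples differed 16.7-fold, and GIF-DTR 1 and 2 differed 23.6-fold. Group means were 147 ± 185 CPM (SD, n = 2) in WT, 5.73 ± 7.92 (n = 3) in GIF-DTR, 2.80 ± 4.69 (n = 3) in GIF/ATP4B-DTR and 0.545 ± 0.266 (n = 3) in ATP4B-DTR, so that in WT, GIF-DTR and GIF/ATP4B-DTR the SD exceeded the mean.

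The light chain followed the heavy chain. Igkc (ENSMUSG00000076609.2; chr6:70726435-70726966, plus strand), whose position overlaps the long non-coding gene Gm30211 on the same strand, stood at 12.4 and 165 CPM in WT 1 and 2. ATP4B-DTR samples 1 to 3 had 0.652, 0.307 and 0.414 CPM, and GIF-DTR samples 1 to 3 had 6.76, 0.983 and 1.51 CPM. In GIF/ATP4B-DTR it had 0 counts in sample 1, 3.38 CPM in sample 2 and 1 count (0.0356 CPM) in sample 3. WT lay above every line sample, and GIF-DTR lay above ATP4B-DTR without overlap. Over the 11 samples, log2(CPM + 1) of Igkc correlated with that of Igha at a Pearson r of 0.990, a value shaped by the few samples with antibody RNA.

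Jchain (ENSMUSG00000067149.6; chr5:88519809-88527891, minus strand), which links IgA monomers and is the part that the Pigr receptor binds, stood at 3.86 and 52.6 CPM in WT 1 and 2. ATP4B-DTR samples 1 to 3 had 0.512, 0.0878 and 0.0828 CPM, and GIF-DTR samples 1 to 3 had 3.36, 0.393 and 0.952 CPM. It was 0.202 and 1.33 CPM in GIF/ATP4B-DTR 1 and 2 and had 0 counts in GIF/ATP4B-DTR 3. WT 1 lay only slightly above GIF-DTR 1. In the 4 samples with more than 100 Igha counts, Jchain counts were 0.233 (WT 1), 0.190 (WT 2), 0.226 (GIF-DTR 1) and 0.161 (GIF/ATP4B-DTR 2) of the Igha counts, a narrow range beside the span of Igha itself.

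Ighm (ENSMUSG00000076617.9; chr12:113418558-113422730, minus strand), the constant region of IgM, which B cells also carry on their surface, had a flatter pattern. It stood at 0.718 and 5.43 CPM in WT 1 and 2, at 0.372, 0.834 and 0.663 CPM in ATP4B-DTR 1 to 3, at 1.51, 1.18 and 1.51 CPM in GIF-DTR 1 to 3 and at 0.363, 0.342 and 0.178 CPM in GIF/ATP4B-DTR 1 to 3. WT 1 lay inside the range of ATP4B-DTR and below all 3 GIF-DTR samples, so only WT 2 was high. GIF/ATP4B-DTR lay below every sample of the other 3 genotypes. GIF-DTR 1, which stood out for Igha, differed 1.28-fold from GIF-DTR 2 for Ighm.

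**Figure D1:**
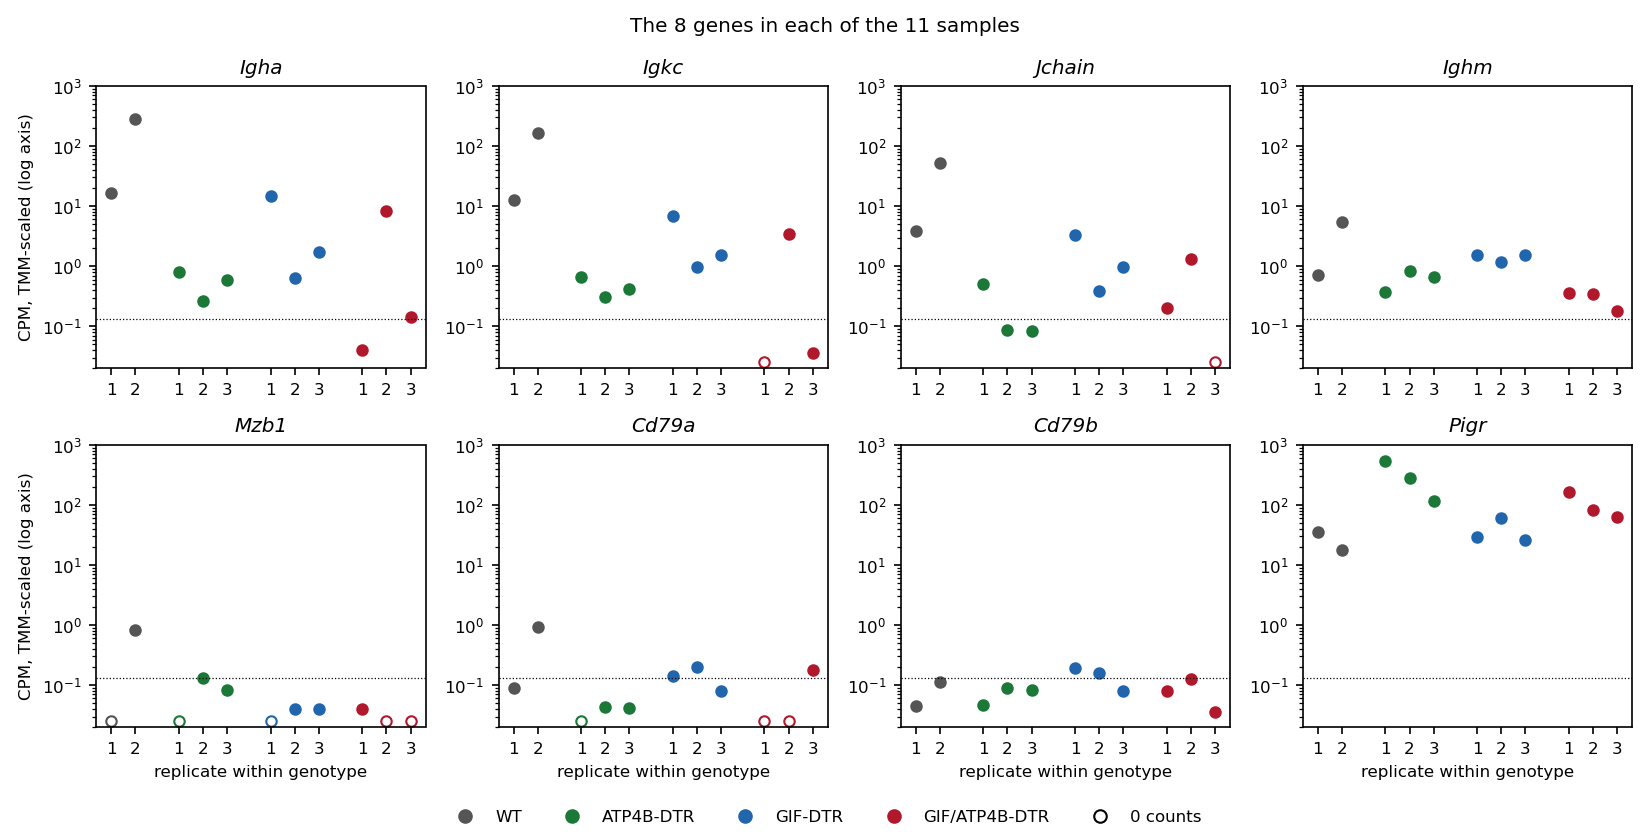
Level of each of the 8 genes in each of the 11 samples, as TMM-scaled CPM on a log axis; filled points are samples, open points at the bottom are samples with 0 counts, and the dotted line is the mean level of 3 counts. Igha, Igkc and Jchain are highest in WT 2 (278, 165 and 52.6 CPM), while Pigr is highest in ATP4B-DTR (117 to 540 CPM).

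The genes that mark the cells themselves were close to the detection limit. Mzb1 (ENSMUSG00000024353.4), a chaperone of the endoplasmic reticulum that helps plasma cells secrete antibody, had 0 and 15 counts in WT 1 and 2, and 0 to 3 counts in each of the 9 line samples. Cd79a (ENSMUSG00000003379.7; chr7:24897381-24902197, plus strand) had 2 and 17 counts in WT 1 and 2, 0 to 1 in ATP4B-DTR, 2 to 5 in GIF-DTR and 0 to 5 in GIF/ATP4B-DTR. Its partner Cd79b (ENSMUSG00000040592.11; chr11:106311341-106314762, minus strand) had between 1 and 4 counts in every sample of the 4 genotypes, with the highest values in GIF-DTR 1 and 2. For these 3 genes WT 2 was the only WT sample above 3 counts, and only for Mzb1 and Cd79a. No fold is given for them, since nearly all samples lay at or under the limit.

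Levels per kilobase of annotated exon allow genes to be compared within a sample. In WT 2, Igkc stood at 311 CPM per kilobase, Igha at 104, Jchain at 20.9, Pigr at 4.48 and Ighm at 2.88. In ATP4B-DTR 1 the 4 antibody genes kept that order at far lower levels and Pigr stood first, at 134 CPM per kilobase, with Igkc at 1.23, Igha at 0.297, Jchain at 0.203 and Ighm at 0.197. WT 1 lay between, with Igkc at 23.4, Pigr at 8.85 and Igha at 6.21 CPM per kilobase, and GIF-DTR 1 had the same order at 12.7, 7.25 and 5.57. Per kilobase, Pigr was thus above Igha in WT 1 and in all 9 line samples, and below it in WT 2.

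The class of antibody was read from the heavy chain constant counts. IgA took 92.0% of 401 counts in WT 1 (95% exact Clopper-Pearson interval 88.9 to 94.5) and 94.5% of 5299 in WT 2 (93.8 to 95.1). It took 90.2% of 348 counts in GIF-DTR 1 (86.6 to 93.1) and 95.5% of 201 in GIF/ATP4B-DTR 2 (91.7 to 97.9). These 4 samples were all IgA-dominated although their antibody levels differed widely. In the other 7 samples 12 to 84 heavy chain counts remained, and IgA took between 7.14% (GIF/ATP4B-DTR 1) and 63.0% (ATP4B-DTR 1) of them. Among these, IgM took 70.4% of 27 counts in ATP4B-DTR 2, 61.2% of 49 in GIF-DTR 2 and 45.2% of 84 in GIF-DTR 3. The intervals cover counting error only, since PCR copies are not independent molecules.

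**Figure D2:**
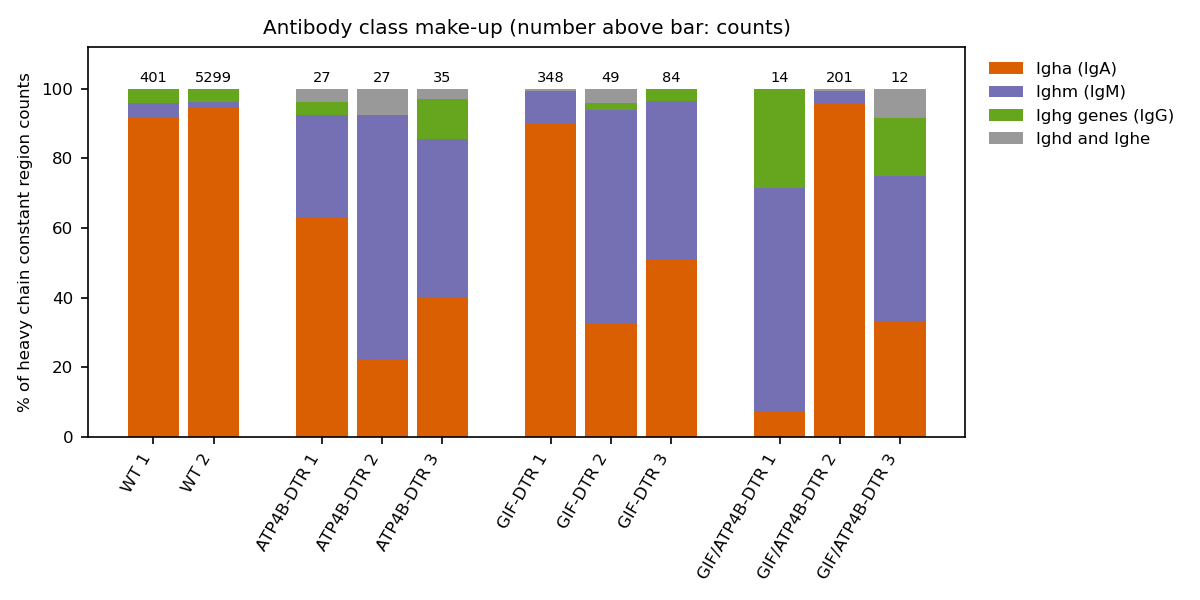
Share of heavy chain constant region counts from Igha, Ighm, the Ighg genes and Ighd with Ighe in each sample, as stacked bars in percent, with the number of counts above each bar. IgA holds 90.2% to 95.5% in WT 1, WT 2, GIF-DTR 1 and GIF/ATP4B-DTR 2, and 63.0% or less in the other 7 samples, which have 84 counts or fewer.

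IgG genes were a minor class. They gave 190 counts in WT 2 (3.59% of the heavy chain counts) and 16 in WT 1 (3.99%), and 0 to 4 counts in each line sample. Ighg1 had 69 counts, Ighg2b 64 and Ighg2c 57 in WT 2, so no single IgG class dominated. Kappa chains made up 95.2% of light chain constant counts in WT 1, 96.5% in WT 2, 96.3% in GIF/ATP4B-DTR 2 and 88.3% in GIF-DTR 1. The interval of GIF-DTR 1 (82.3 to 92.8) lay below that of WT 2 (95.8 to 97.1). It overlapped those of WT 1 (92.1 to 97.3) and GIF/ATP4B-DTR 2 (89.7 to 99.2).

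Each B cell lineage joins 1 variable segment per chain from a large germline set, and its plasma cells keep that choice. The last 60 bases of the most abundant segment of each chain in WT 2 and in GIF-DTR 1 are shown because these are the segments whose shares are described next. Each is the germline sequence of the GENCODE M21 transcript on GRCm38, 5′ to 3′, with the codon of the conserved cysteine before the junction in capitals.
Ighv1-81: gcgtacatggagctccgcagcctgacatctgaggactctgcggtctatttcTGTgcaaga
Ighv9-3: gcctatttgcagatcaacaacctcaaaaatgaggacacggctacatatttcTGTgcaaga
Igkv10-96: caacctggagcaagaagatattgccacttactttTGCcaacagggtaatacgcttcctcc
Igkv8-27: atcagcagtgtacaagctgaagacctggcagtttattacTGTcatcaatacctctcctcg
Iglv1: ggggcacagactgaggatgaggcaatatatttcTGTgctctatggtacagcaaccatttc
They lie on the minus strand at chr12:115920279-115920338 (Ighv1-81), chr12:114140692-114140751 (Ighv9-3), chr6:68631963-68632022 (Igkv10-96), chr6:70171809-70171868 (Igkv8-27) and chr16:19085017-19085076 (Iglv1). Over these bases Ighv9-3 was identical to Ighv9-2, Ighv1-81 matched Ighv1-85 at 98.3% and Iglv1 matched Iglv2 at 95%. Counts of single segments can therefore be split between near copies and are uncertain.

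In WT 2 the repertoire was spread over many segments. Counts fell on 81 of 185 heavy segments and 77 of 160 kappa segments, and the most abundant ones, Ighv1-81 and Igkv10-96, took 4.88% of 1118 and 10.5% of 1490 segment counts. WT 1 used 36 heavy and 37 kappa segments at far lower depth, with Ighv6-3 at 11.3% of 71 counts and Igkv10-96 again first at 9.68% of 93. GIF-DTR 1 had counts on 12 heavy and 10 kappa segments, and Ighv9-3 took 40% of its 45 heavy segment counts (exact interval 25.7 to 55.7) and Igkv8-27 took 48.5% of its 33 kappa counts (30.8 to 66.5). Iglv1, 1 of 3 lambda segments, led in every sample with lambda counts: it took all 8 in WT 1, 87.0% of 77 in WT 2 and all 27 in GIF-DTR 1. For Igkv8-27 GIF-DTR 1 had more counts (16) than WT 2 (10), although WT 2 had 18.0 times as many immunoglobulin counts. The remaining 8 samples had between 0 and 12 heavy segment counts, too few to describe a repertoire.

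Fold changes of the 5 genes that passed the filter restate these levels on the log2 scale. In ATP4B-DTR against WT, the fitted log2 fold change was −8.07 ± 2.17 (SE) for Igha, −7.59 ± 1.78 for Igkc, −6.95 ± 1.68 for Jchain and −2.28 ± 0.70 for Ighm. Pigr went the other way, at 3.53 ± 0.80, or 11.6-fold. Among the 5, 4 were called lower and 1 higher at an adjusted p under 0.05, beside 9.39% of all tested genes called lower and 12.2% called higher (21.6% in either direction). The members were chosen on this contrast.

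GIF-DTR against WT gave smaller fitted changes: −4.70 ± 1.76 for Igha, −4.87 ± 1.496 for Igkc, −4.18 ± 1.42 for Jchain, −1.13 ± 0.68 for Ighm and 0.53 ± 0.71 for Pigr. Of the 5, edgeR's quasi-likelihood test called 0, beside 16.8% of all tested genes (6.82% lower and 9.97% higher). DESeq2 called 0, beside 3358 of 14873 genes. At an unadjusted p under 0.05 by edgeR stood 3 of the 5, beside 4668 of all 14889 tested genes. Without robust moderation edgeR called Igkc and Jchain lower in GIF-DTR, and with at least 10 counts in 6 samples it called Igkc. GIF/ATP4B-DTR against WT gave −5.74 ± 1.86 for Igha, −6.33 ± 1.63 for Igkc, −5.82 ± 1.55 for Jchain, −3.36 ± 0.73 for Ighm and 1.94 ± 0.74 for Pigr. Here 4 of the 5 were called lower, beside 15.4% of all tested genes called lower and 33.6% in either direction. DESeq2 called only Ighm and Jchain lower, and Pigr higher, in the ATP4B-DTR and the GIF/ATP4B-DTR comparison with WT. Over all genes it called 3970 and 5728 of 14873 in these comparisons. With only the 2 groups fitted, Igha, Igkc and Jchain were called lower in ATP4B-DTR and only Ighm in GIF/ATP4B-DTR. With no filter on low counts, the Igha call was lost in both. The 3 comparisons share the same 2 WT samples.

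Each call against WT depended on WT 2. Without WT 2, 0 of the 5 genes were called in any of the 3 comparisons, and the fitted change of Igha became −4.92 for ATP4B-DTR, −1.54 for GIF-DTR and −2.58 for GIF/ATP4B-DTR. Igkc became −4.75, −2.02 and −3.47 and Jchain −4.08, −1.31 and −2.94 in the same order. Ighm became −0.20, 0.96 and −1.28, so that its direction in GIF-DTR turned over. Without WT 1, the called genes were all 5 in ATP4B-DTR, 2 in GIF-DTR (Ighm and Jchain) and 4 in GIF/ATP4B-DTR. In ATP4B-DTR, leaving out sample 1, 2 or 3 left 1, 0 or 1 of the 4 lower calls, while Pigr stayed called. In GIF/ATP4B-DTR, leaving out sample 1 left 2 lower calls and leaving out sample 3 left 3. Leaving out GIF/ATP4B-DTR 2, the sample with most of the antibody RNA of its group, moved Igha to −10.5, Igkc to −11.8 and Jchain to −8.12. With Y-linked expression as a covariate, 0 of the 4 antibody genes were called lower in the ATP4B-DTR line and 3 in the GIF/ATP4B-DTR line.

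Between the lines, the fitted changes of Igha, Igkc and Jchain were all under 2 standard errors. GIF-DTR against ATP4B-DTR gave a fitted 3.36 ± 2.02 for Igha, 2.72 ± 1.69 for Igkc, 2.77 ± 1.57 for Jchain and 1.16 ± 0.65 for Ighm. GIF/ATP4B-DTR against ATP4B-DTR gave 2.32 ± 2.09 for Igha, which turned to −2.46 without GIF/ATP4B-DTR 2, and GIF/ATP4B-DTR against GIF-DTR gave −1.04 ± 1.65, which turned to 1.22 without GIF-DTR 1. Ighm was lower in GIF/ATP4B-DTR than in GIF-DTR (log2 difference −2.24 ± 0.69), with no overlap between the 3 samples of each. In these 3 comparisons edgeR called 0 of the 5 genes, beside 0.49% (0.403% higher and 0.0873% lower), 0% and 2.53% (2.19% lower) of all tested genes. At an unadjusted p under 0.05 by edgeR stood 1, 1 and 1 of the 5, beside 1460, 1554 and 2687 of all 14889 tested genes. DESeq2 called Pigr lower in GIF-DTR than in ATP4B-DTR and Ighm lower in GIF/ATP4B-DTR than in GIF-DTR. Over all genes it called 383 of 14873 and 987 of 14295 there. Without ATP4B-DTR 3, edgeR also called Pigr lower in GIF-DTR than in ATP4B-DTR.

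Pigr (ENSMUSG00000026417.13; chr1:130826684-130852249, plus strand), the epithelial carrier, did not follow the antibody genes. It stood at 35.6 and 18.0 CPM in WT 1 and 2 and at 540, 275 and 117 CPM in ATP4B-DTR 1 to 3. In GIF-DTR 1 to 3 it was 29.2, 61.6 and 25.8 CPM, and in GIF/ATP4B-DTR 1 to 3 it was 164, 82.5 and 62.7 CPM. From high to low, ATP4B-DTR averaged 311 ± 214 CPM (SD, n = 3), GIF/ATP4B-DTR 103 ± 53.9 (n = 3), GIF-DTR 38.8 ± 19.8 (n = 3) and WT 26.8 ± 12.4 (n = 2). In that order, ATP4B-DTR overlapped GIF/ATP4B-DTR and GIF-DTR overlapped WT, while the lowest GIF/ATP4B-DTR sample (62.7) lay barely above the highest GIF-DTR sample (61.6). Both genotypes named for the parietal cell gene thus lay above WT and above GIF-DTR in every sample. Counts of Pigr were fractional in 10 of the 11 samples, and the cause was not tested.

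The fitted change of Pigr in ATP4B-DTR against WT was called in 11 of 13 alternatives, and was lost without WT 2 and when only those 2 groups were fitted. In GIF/ATP4B-DTR against WT it was not called, and 3 of 13 alternatives called it. Against ATP4B-DTR, the log2 difference of Pigr was −2.999 ± 0.66 for GIF-DTR and −1.59 ± 0.63 for GIF/ATP4B-DTR, and GIF/ATP4B-DTR exceeded GIF-DTR by 1.41 ± 0.63. That last difference became −0.06 with Y-linked expression as a covariate. Genotype and Y-linked transcripts coincide in GIF/ATP4B-DTR and GIF-DTR, so the covariate cannot adjust this difference. It only carries over the gap between ATP4B-DTR 1 and ATP4B-DTR 2 and 3. Among samples with Y-linked transcripts, Pigr was 18.0 to 35.6 CPM in WT, 540 CPM in ATP4B-DTR 1 and 62.7 to 164 CPM in GIF/ATP4B-DTR. Among samples without them, it was 117 to 275 CPM in ATP4B-DTR 2 and 3 and 25.8 to 61.6 CPM in GIF-DTR. ATP4B-DTR was the higher genotype within both sets.

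The promoter of Pigr is shown because Pigr is the member whose level exceeded WT in every sample of ATP4B-DTR and of GIF/ATP4B-DTR. The 250 bases before its start in RefSeq (GRCm38.p6 chr1:130826434-130826683, plus strand) read 5′ to 3′, with the E-box CACGTG in capitals.
Pigr: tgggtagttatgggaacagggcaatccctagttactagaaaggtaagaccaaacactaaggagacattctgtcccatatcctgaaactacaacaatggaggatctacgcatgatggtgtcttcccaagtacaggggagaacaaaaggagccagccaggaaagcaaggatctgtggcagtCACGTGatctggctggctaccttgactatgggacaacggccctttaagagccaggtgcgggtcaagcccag
CACGTG, a palindrome that reads the same on both strands, lies 71 to 66 bases before the start, and 6.02% of 32851 promoter windows of that length hold it. The other motifs searched on both strands were TTCNNNGAA (7.02% of windows), the interferon response element ISRE (2.98%) and the octamer ATGCAAAT (1.60%), and none of these letters was found in this window. The Jchain window of the same length held none of the 4 motifs. RefSeq promoters were matched for 3 of the 8 genes. A match is a description of the letters and not evidence of binding.

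The 5 genes whose pattern over the 11 samples was most like that of Pigr, among 12697 with a mean of at least 1 CPM, were Reg3g (Pearson r of log2(CPM + 1) 0.966), Clca1 (0.946), Pou2f3 (0.942), Pbld2 (0.934) and Lrmp (0.927). Reg3g, an antibacterial lectin of mucosal epithelium, stood at 1.39 and 0.333 CPM in WT 1 and 2, at 35.3, 18.0 and 6.50 CPM in ATP4B-DTR 1 to 3, at 2.08, 2.40 and 0.913 CPM in GIF-DTR and at 11.01, 7.44 and 7.77 CPM in GIF/ATP4B-DTR. Clca1, a secreted goblet cell protein, stood at 127 and 44.1 CPM in WT and reached 3423 CPM in ATP4B-DTR 2. Pou2f3, the transcription factor of tuft cells, stood at 1.66 and 1.72 CPM in WT and at 5.35, 3.60 and 3.11 CPM in ATP4B-DTR. For Reg3g and Pou2f3, as for Pigr, ATP4B-DTR 1 was the highest sample, whereas Clca1, Pbld2 and Lrmp were highest in ATP4B-DTR 2. The points share their libraries and genotypes, and the correlations are given as description.

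**Figure D3:**
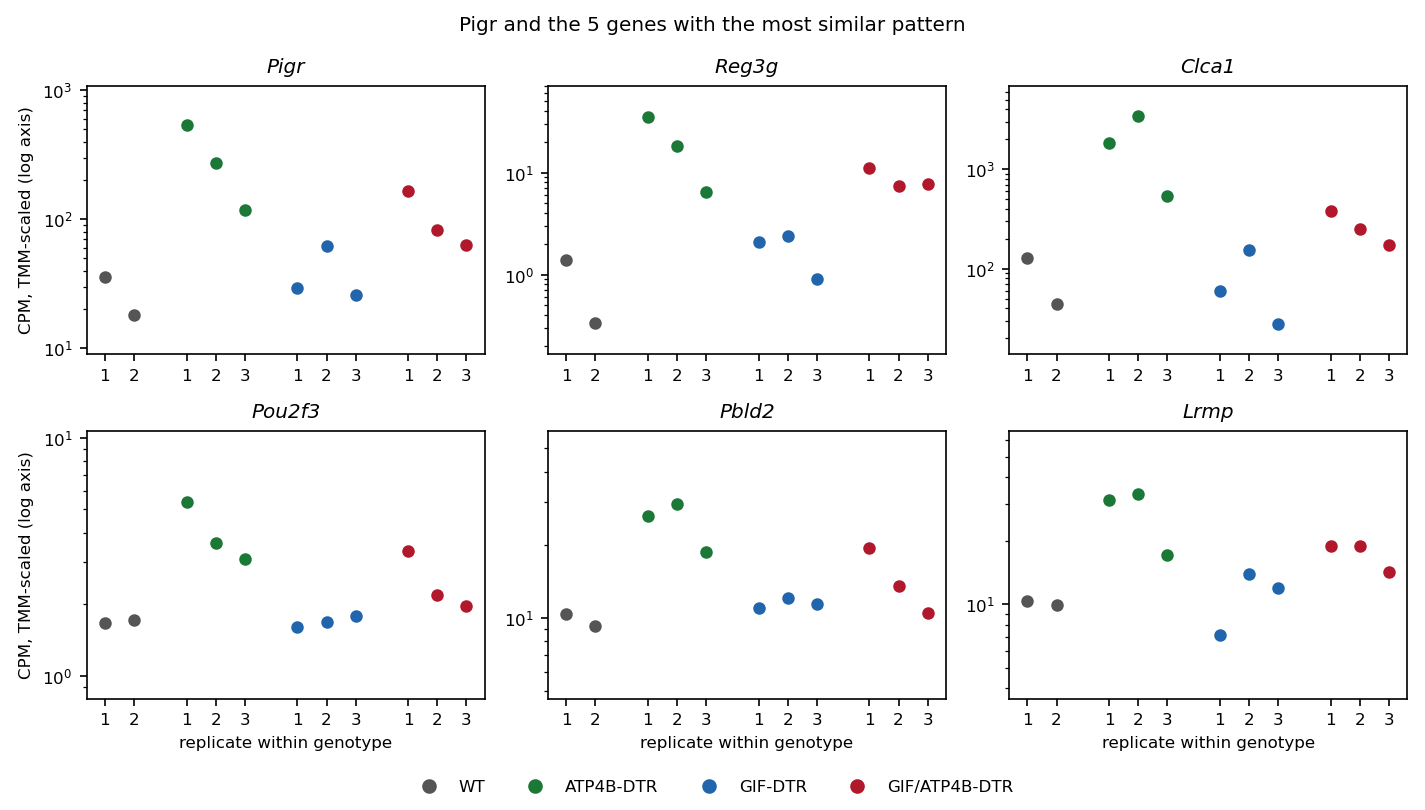
Pigr and the 5 genes with the most similar pattern, as TMM-scaled CPM in each sample on log axes whose ranges differ by panel. In all 6 panels the highest sample belongs to ATP4B-DTR; Reg3g ranges from 0.333 CPM in WT 2 to 35.3 CPM in ATP4B-DTR 1.

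Genes most like Igha by the same measure were Csgalnact2 (r = 0.966), Ppp2r2c (0.941), Tanc2 (0.910), Ttc7b (0.907) and Mn1 (0.904). Antibody genes were left out of this ranking. The span of these genes was far smaller than that of Igha: Csgalnact2, an enzyme of chondroitin sulphate synthesis, ran from 7.37 CPM in ATP4B-DTR 3 to 16.4 CPM in WT 2. Genes most like Cd79a were Gm19220 (0.912), Mn1 (0.905), Slc43a3 (0.896), Usp54 (0.894) and Cyp2d22 (0.888), each highest in WT 2. For Slc43a3 the WT samples stood at 1.39 and 15.6 CPM and the line samples at 1.53 to 5.06 CPM, so WT 2 stood apart for both genes.

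Plasma cell genes outside the members gave a mixed picture. Of 16 listed genes, 13 were tested, and their median log2 fold change was −0.11 for ATP4B-DTR, −0.01 for GIF-DTR and −0.07 for GIF/ATP4B-DTR against WT, beside −0.01, −0.01 and −0.04 over all tested genes. By edgeR, 2 fell and 0 rose in ATP4B-DTR, 2 fell and 0 rose in GIF-DTR, and 3 fell and 1 rose in GIF/ATP4B-DTR. At an unadjusted p under 0.05 by edgeR, in either direction, stood 6, 5 and 4 of the 13. Of all 14889 tested genes, 5186, 4668 and 6622 did so. DESeq2 called 4 lower and 1 higher in ATP4B-DTR, and 3 lower and 1 higher in each of the other lines. The edgeR calls, 2, 2 and 4 of 13, stand beside 21.6%, 16.8% and 33.6% of all tested genes called. The list sum ran from 797 to 1138 CPM and came mostly from Xbp1, Txndc5, Sdc1 and Ell2, which were each above 80 CPM in every sample, including those with under 20 immunoglobulin counts. Tnfrsf17, the survival receptor BCMA that is the most plasma cell-restricted of the list, was at 0 in 9 of the 11 samples.

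Derl3, a component of the machinery that removes misfolded proteins from the endoplasmic reticulum, fell in all 3 lines. It stood at 4.04 and 6.43 CPM in WT 1 and 2, and at 1.58, 0.483 and 1.66 CPM in ATP4B-DTR (log2 fold change −2.07 ± 0.52, edgeR adjusted p = 0.0157). In GIF-DTR it was 0.568, 0.472 and 0.516 CPM (−3.32 ± 0.54, adjusted p = 0.00332) and in GIF/ATP4B-DTR 0.484, 0.299 and 0.249 CPM (−3.91 ± 0.56, adjusted p = 0.000451). Derl3 spanned far less between the 2 WT samples than Igha did, and GIF-DTR 1 and GIF/ATP4B-DTR 2 did not stand out for it. The ATP4B-DTR call was lost without WT 2, with the Y-linked covariate and with only those 2 groups fitted, and the GIF-DTR call with the covariate. Chief cell genes, of which 6 or 7 of 8 were above 3 counts in each sample and Lipf was at 0 in all, summed to less in every line sample than in either WT sample. The sums were 86208 and 192726 CPM in WT 1 and 2, 17306 to 62284 CPM in ATP4B-DTR, 5361 to 22853 CPM in GIF-DTR and 3162 to 12705 CPM in GIF/ATP4B-DTR, the same order of genotypes as Derl3. Their part in the fall of Derl3 and of the secretory genes Ell2 and Xbp1 was not tested.

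Ell2, an elongation factor that promotes secretory antibody mRNA in plasma cells, fell from 157 and 163 CPM in WT to 97.9, 96.8 and 80.2 CPM in GIF-DTR (−0.80 ± 0.14, adjusted p = 0.00409) and to 91.0, 83.3 and 90.3 CPM in GIF/ATP4B-DTR (−0.86 ± 0.14, adjusted p = 0.000851). The GIF-DTR call was lost with the Y-linked covariate. Xbp1, the transcription factor of secretory cells, fell in GIF/ATP4B-DTR by 0.50 ± 0.13 on the log2 scale (adjusted p = 0.0103), a call lost with only those 2 groups fitted. Sdc1, the surface proteoglycan CD138 that plasma cells share with epithelium, fell in ATP4B-DTR by 0.57 ± 0.18 (adjusted p = 0.0390). That call was lost without WT 1 and without any 1 of the 3 ATP4B-DTR samples. Cd38, an ectoenzyme of plasma cells and other leukocytes, rose in GIF/ATP4B-DTR (1.81 ± 0.58, adjusted p = 0.0311), a call lost without WT 1, GIF/ATP4B-DTR 1 or GIF/ATP4B-DTR 2.

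Of 386 antibody genes outside the members, 4 passed the filter on low counts: Ighv9-3, Iglc1, Iglv1 and Igkv8-27. They passed through the few samples in which they are high, so only their counts are given here. Their calls, listed further below for completeness, support nothing. The lambda constant gene Iglc1 had 7 and 64 counts in WT 1 and 2, 0, 0 and 3 in ATP4B-DTR, 19, 1 and 0 in GIF-DTR and 0 in each GIF/ATP4B-DTR sample. Ighv9-3 had 6.86 and 43.0 estimated counts in WT 1 and 2, 18 in GIF-DTR 1, 1 in GIF/ATP4B-DTR 2 and 0 in the other 7 samples. WT 2 and GIF-DTR 1 were the samples richest in both.

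B cell genes were near the limit in all genotypes. Of 18 listed genes, 8 were tested. Ms4a1, the surface protein CD20, and Pax5, the factor that fixes B cell identity, reached at most 0.124 and 0.0466 CPM in any sample. The summed level of the list, 14.1 to 19.6 CPM, came mostly from Blnk and Spib, and moved little between WT (17.5 to 17.9), ATP4B-DTR (15.5 to 19.6), GIF-DTR (14.7 to 17.5) and GIF/ATP4B-DTR (14.1 to 15.6). Spib fell in GIF-DTR (−0.84 ± 0.24, adjusted p = 0.0377), a call lost without either WT sample, without GIF-DTR 1 or 3 and with the Y-linked covariate. That is 1 of 8 genes, beside 16.8% of all tested genes called in that comparison. In ATP4B-DTR and GIF/ATP4B-DTR 0 of the 8 were called by edgeR or DESeq2. At an unadjusted p under 0.05 by edgeR stood 0 and 1 of them, beside 5186 and 6622 of all 14889 tested genes. T cell genes summed to 1.14 to 5.21 CPM, highest in WT 2.

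Genes that induce, attract and hold IgA plasma cells were examined next. Of 24 listed, 17 were tested, with median log2 fold changes of −0.23 for ATP4B-DTR, 0.19 for GIF-DTR and −0.06 for GIF/ATP4B-DTR against WT. By edgeR, 1 rose and 0 fell in ATP4B-DTR (4 at an unadjusted p under 0.05 in either direction; 1 higher and 1 lower by DESeq2, and 1 higher and 3 lower by edgeR without WT 1), in GIF-DTR 0 were called (3 at an unadjusted p under 0.05; 1 lower by DESeq2), and in GIF/ATP4B-DTR 1 rose and 3 fell. These 1, 0 and 4 of 17 stand beside the 21.6%, 16.8% and 33.6% of all tested genes called. For the unadjusted p and for DESeq2, the counts over all genes are those given with the plasma cell list. Ccl28, an epithelial chemokine that draws IgA plasma cells, stood at 14.9 and 9.42 CPM in WT and at 9.36 to 22.3 CPM in the lines, and was not called.

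Tnfsf13, which encodes APRIL, a survival factor of plasma cells, was the gene that rose. It stood at 3.48 and 1.69 CPM in WT, at 7.67, 6.12 and 4.17 CPM in ATP4B-DTR (log2 fold change 1.21 ± 0.35, adjusted p = 0.0283) and at 8.18, 8.15 and 8.02 CPM in GIF/ATP4B-DTR (1.64 ± 0.35, adjusted p = 0.00419). In GIF-DTR it was 3.43, 3.14 and 3.58 CPM, within the WT range apart from the last, and GIF/ATP4B-DTR exceeded GIF-DTR by 1.27 ± 0.30 (adjusted p = 0.0485). The ATP4B-DTR call was lost without WT 2, ATP4B-DTR 1 or ATP4B-DTR 2. The GIF/ATP4B-DTR call against WT was kept in 13 of 13 alternatives, and the one against GIF-DTR in 6 of 14, with no call after leaving out any 1 sample of either group.

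The genes that fell in GIF/ATP4B-DTR were 2 integrin subunits of mucosal lymphocytes and a chemokine. Itgae, the CD103 subunit of intraepithelial lymphocytes, stood at 2.29 and 2.72 CPM in WT and 0.242, 0.599 and 0.499 CPM in GIF/ATP4B-DTR (−2.47 ± 0.61, adjusted p = 0.00961), a call kept in 13 of 13 alternatives. Its partner Itgb7 stood at 1.80 and 3.10 CPM in WT and 0.766, 0.855 and 0.321 CPM (−1.92 ± 0.54, adjusted p = 0.0185), a call lost without WT 2 or GIF/ATP4B-DTR 3. Cxcl12, a stromal chemokine that retains plasma cells, stood at 1.93 and 28.1 CPM in WT and at 1.17, 2.82 and 2.81 CPM in GIF/ATP4B-DTR (−2.72 ± 0.91, adjusted p = 0.0462). Without WT 2 its fitted change was 0.23, so its direction rested on that sample, and its call was also lost without any 1 GIF/ATP4B-DTR sample.

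Cytokines, receptors and factors known to raise Pigr came next. Of 23 listed, 20 were tested, and their medians against WT were 0.14 for ATP4B-DTR, 0.00 for GIF-DTR and 0.22 for GIF/ATP4B-DTR. By edgeR, 2 rose and 2 fell in ATP4B-DTR, 3 rose and 0 fell in GIF-DTR (5 at an unadjusted p under 0.05 in either direction; 3 higher and 1 lower by DESeq2), and 4 rose and 1 fell in GIF/ATP4B-DTR. These 4, 3 and 5 of 20 stand beside the same shares of all tested genes, and the same all-gene counts for the unadjusted p and DESeq2. They count Tnf in each line, which passed the filter only through the line samples. Its call therefore supports nothing and adds 1 to each total. Relb, a subunit of NF-kappa B, stood at 10.01 and 8.21 CPM in WT, at 16.9, 22.1 and 20.9 CPM in ATP4B-DTR (1.13 ± 0.32, adjusted p = 0.0273), at 21.6, 39.9 and 28.9 CPM in GIF-DTR (1.72 ± 0.32, adjusted p = 0.00666) and at 23.2, 35.8 and 47.1 CPM in GIF/ATP4B-DTR (1.96 ± 0.32, adjusted p = 0.00118). All 9 line samples lay above both WT samples. The Relb call was lost without WT 2 and with the Y-linked covariate in ATP4B-DTR and GIF-DTR, and in ATP4B-DTR also without WT 1, ATP4B-DTR 2 or ATP4B-DTR 3.

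Tnf, the cytokine that signals through NF-kappa B, had 3 counts or fewer in both WT samples and passed the filter through the line samples, so its levels are given without a test. It stood at 0.0449 and 0.0554 CPM in WT 1 and 2, at 0.605 to 1.19 CPM in ATP4B-DTR, at 0.331 to 2.05 CPM in GIF-DTR and at 1.13 to 2.92 CPM in GIF/ATP4B-DTR. Irf1, an interferon-responsive factor, rose in GIF-DTR (1.21 ± 0.34, adjusted p = 0.0364) and GIF/ATP4B-DTR (1.14 ± 0.34, adjusted p = 0.0259), both lost without WT 2, without replicate 2 of the line and with no filter on low counts, and the second also without GIF/ATP4B-DTR 3. Il4ra, the receptor subunit for IL-4 and IL-13, fell in ATP4B-DTR (−0.66 ± 0.19, adjusted p = 0.0281) and GIF/ATP4B-DTR (−0.69 ± 0.19, adjusted p = 0.0161), both lost without either WT sample and without replicate 2 of the line, and the first also without ATP4B-DTR 3. Ifngr1, a receptor subunit for interferon gamma, fell in ATP4B-DTR (−0.58 ± 0.18, adjusted p = 0.0371), lost without WT 1 or any 1 ATP4B-DTR sample, and Rela rose in GIF/ATP4B-DTR (0.46 ± 0.15, adjusted p = 0.0307), lost without either WT sample, GIF/ATP4B-DTR 2 or GIF/ATP4B-DTR 3. Il17a, Il17f and Ifng, the ligands themselves, were at most 0.0787, 0.214 and 0.0473 CPM.

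The Y-linked covariate is estimated only from ATP4B-DTR 1 against ATP4B-DTR 2 and 3, so it cannot separate Y-linked expression from genotype elsewhere. With it, each call against WT named above for GIF-DTR was lost: Derl3, Ell2, Spib, Relb and Irf1. So were those of Derl3, Sdc1, Relb, Il4ra and Ifngr1 in ATP4B-DTR, that of Cxcl12 in GIF/ATP4B-DTR and that of Tnfsf13 between GIF/ATP4B-DTR and GIF-DTR. With only the 2 groups fitted, the calls lost were Derl3, Sdc1 and Tnfsf13 in ATP4B-DTR, Spib and Irf1 in GIF-DTR, and Xbp1, Cd38, Cxcl12, Itgb7, Il4ra and Rela in GIF/ATP4B-DTR. With no filter on low counts, the calls of Spib in GIF-DTR and Cxcl12 in GIF/ATP4B-DTR were lost too.

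**Figure D4:**
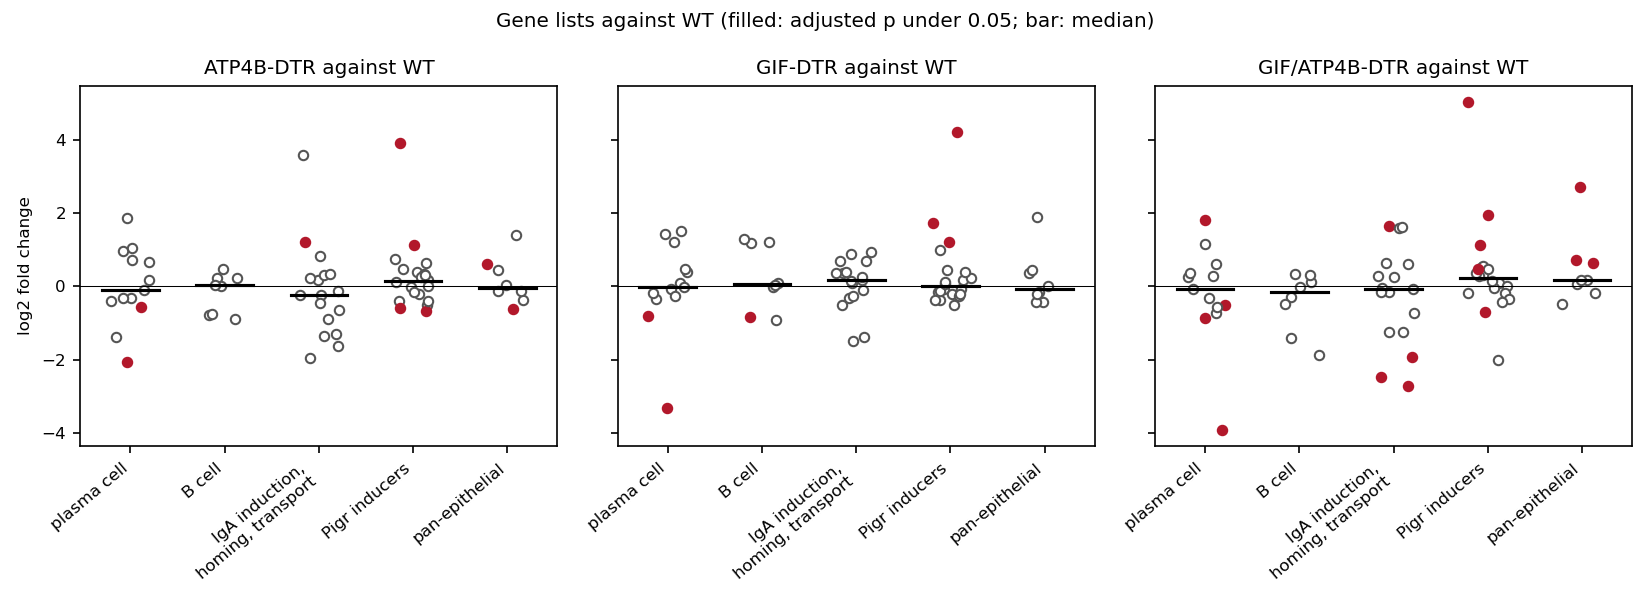
Fitted log2 fold change against WT of each tested gene in 5 lists, in 3 panels for the 3 lines; each point is a gene, filled where the adjusted p was under 0.05, and the bar is the median of the list. Medians stay near 0 (between −0.23 and 0.22) while Derl3, at −2.07, −3.32 and −3.91, is the lowest plasma cell gene in each panel.

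Other tissue components differed between the same samples. Smooth muscle genes (6 of 6 detected in every sample) summed to 359 and 2135 CPM in WT 1 and 2, to 833, 519 and 1215 CPM for ATP4B-DTR, to 2516, 670 and 427 CPM for GIF-DTR and to 252, 625 and 558 CPM for GIF/ATP4B-DTR. Within WT, GIF-DTR and GIF/ATP4B-DTR, the sample with the most muscle signal was also the one with the most Igha, but within ATP4B-DTR it was not. ATP4B-DTR 3 had more muscle signal than WT 1 (1215 against 359 CPM) and less Igha (0.580 against 16.6 CPM). Genes of organised lymphoid tissue summed to 3.40 and 11.7 CPM in WT 1 and 2, 5.94 to 6.74 CPM in ATP4B-DTR, 4.15 to 16.4 CPM in GIF-DTR and 3.59 to 9.21 CPM in GIF/ATP4B-DTR, mostly through Ccl21a, a lymphatic chemokine. Its highest samples were GIF-DTR 1 (14.6 CPM), WT 2 (9.43 CPM) and GIF/ATP4B-DTR 2 (7.93 CPM), the ones richest in Igha in each of those groups. Ccl19, Cxcl13 and Cxcr5, which mark follicles and their zones, were at most 0.615 CPM. The part of muscle or lymphoid tissue in the antibody levels was not tested.

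Macrophage and monocyte genes summed to 20.2 and 96.5 CPM in WT 1 and 2, 66.2 to 115 CPM in ATP4B-DTR, 135 to 211 CPM in GIF-DTR and 56.0 to 88.4 CPM in GIF/ATP4B-DTR. WT 1, with less antibody RNA than WT 2, also had the least of these. ATP4B-DTR 3 and GIF/ATP4B-DTR 2 each had the most of both in their line. In GIF-DTR the order was the other way: GIF-DTR 1, the richest in antibody RNA, had the least myeloid signal (135 CPM). Pan-epithelial genes summed to 11758 and 7904 CPM in WT, 9297 to 11077 CPM in ATP4B-DTR, 8713 to 10616 CPM in GIF-DTR and 9879 to 12748 CPM in GIF/ATP4B-DTR.

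**Figure D5:**
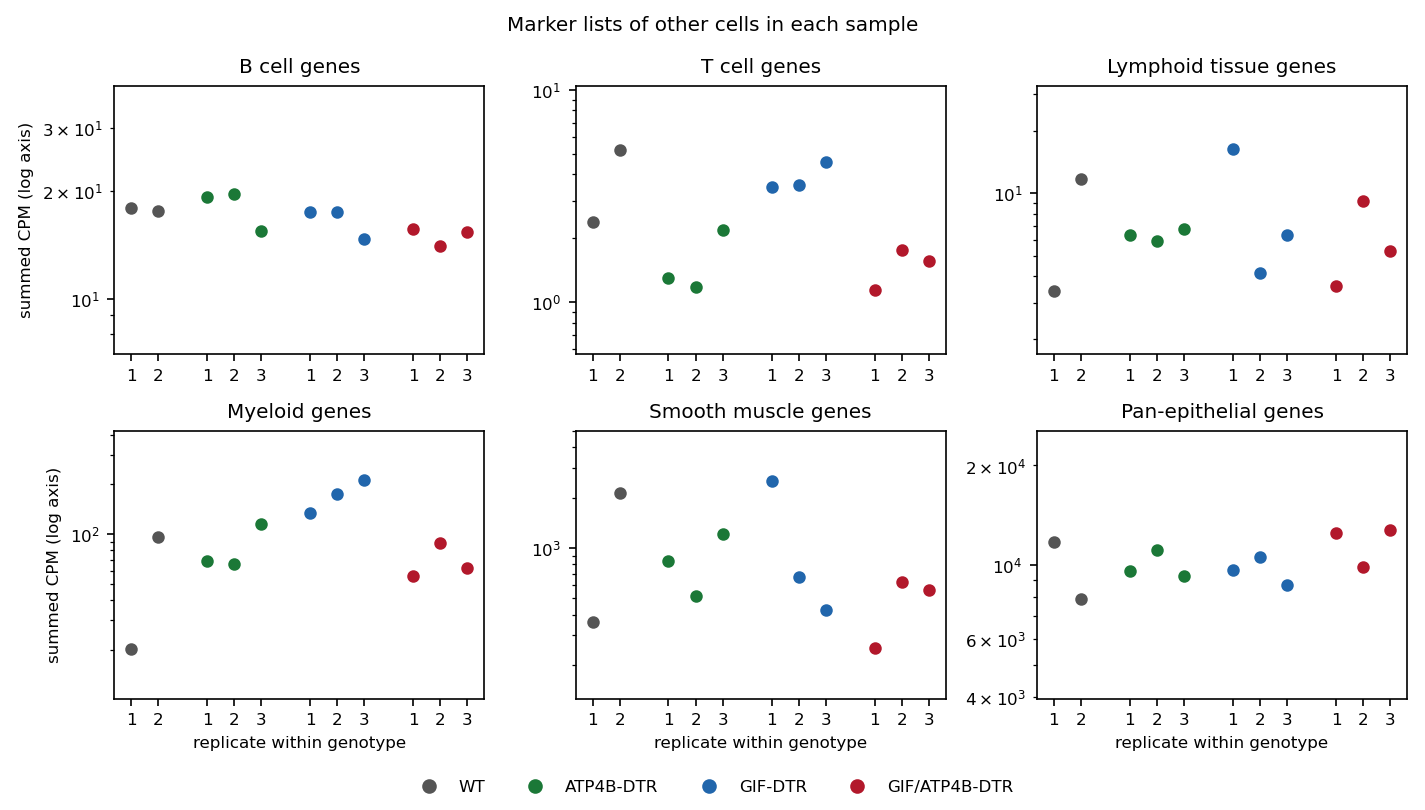
Summed CPM of marker gene lists for other cells in each sample, on log axes whose ranges differ by panel. Smooth muscle genes are highest in GIF-DTR 1 (2516 CPM) and WT 2 (2135 CPM), while B cell genes stay between 14.1 and 19.6 CPM.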

How the data were processed

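Libraries were of stranded mRNA, per the labels' protocols. The authors deposited estimated counts per gene for all 11 samples; the unit was read from the deposited values, since 30.7% of nonzero entries are fractional. The genome build is mm10, per the submitters' processing notes, and the aligner, quantifier and annotation are not given in the sources used here. The number of columns left unused was 0. Symbols were matched for 34582 of 34866 identifiers (99.2%), and 93.4% of the versioned identifiers are in GENCODE M21 (GRCm38), which gave positions and exon lengths.

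Expected counts were rounded to whole numbers. Using edgeR 4.0.16 in R 4.3.3, filterByExpr kept 14889 genes, libraries were scaled by TMM, and a robust quasi-likelihood model with 1 coefficient per genotype was fitted to all 11 samples, so the 2 WT samples share the spread of every group (common biological coefficient of variation 26.6%). P-values were adjusted by Benjamini-Hochberg over all tested genes in each of 6 comparisons, with calls at 0.05. On simulated counts with 200 genes changed 4-fold, 86.5% to 92.5% were recovered and 2.14% to 5.13% of calls were false, depending on the comparison. The changed genes were drawn from those above 1 CPM, with the spread typical of their level. These rates therefore do not apply to the antibody genes, whose spread within WT was far larger (Igha differed 16.7-fold).

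The members and gene lists were chosen with earlier results of these data known. Genes named besides the members are, per list and comparison, at most 3 called in each direction (mean of at least 1 CPM), the leading variable segments, and the 5 genes most like Igha, Cd79a and Pigr. Tnf (mean under 1 CPM) and the list genes given with levels only (Ccl28, Ccl21a, Tnfrsf17, B cell markers, cytokine ligands) fall outside this rule and were chosen after their values were seen. Replicate numbers of the lines follow accession order and pair no samples. Alternatives were other scalings, filters and moderation, a Y-linked covariate, only the groups compared, DESeq2 1.42.0, and leaving out each sample in turn.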

Additional observations from a re-analysis of the deposited data

How the results depend on the processing

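For the members, 361 of 405 alternative fold changes moved by less than 1 SD between replicates and 44 moved by more. That SD is wide for the antibody genes, since the WT samples differed 16.7-fold in Igha. A move under 1 SD is therefore no sign that a call is stable, and each member call against WT depended on WT 2. Of 399 alternative counts, 317 stayed within 1.5 times the main count and 82 did not. The causes were not tested. No paired analysis was possible because the replicate numbers of the lines come from accession order. Depth limits Mzb1, Cd79a, Cd79b, single variable segments and antibody class in samples with few antibody counts.

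Leaving out 1 sample, genes called ranged from 1322 to 2913 in ATP4B-DTR (main 3211), 880 to 2001 in GIF-DTR (2500) and 2879 to 4630 in GIF/ATP4B-DTR (5005) against WT. Between lines they ranged from 17 to 137 in GIF-DTR against ATP4B-DTR (73), 0 to 43 in GIF/ATP4B-DTR against ATP4B-DTR (0, with 1554 at an unadjusted p under 0.05) and 160 to 320 in GIF/ATP4B-DTR against GIF-DTR (376). For the 4 immunoglobulin genes outside the members that were tested, which passed the filter only through the samples where they are high, calls support nothing and are listed only for completeness. They ranged from 0 to 1 (1), 0 to 2 (0) and 0 to 3 (2) against WT (ATP4B-DTR first, then GIF-DTR, then GIF/ATP4B-DTR), plasma cell genes from 1 to 2 in ATP4B-DTR (2), and B cell genes from 0 to 1 in GIF-DTR (1). IgA axis genes ranged from 0 to 4 (1), 0 to 1 (0) and 2 to 5 (4) against WT, and were 0 to 0 in GIF/ATP4B-DTR against GIF-DTR (1). Cxcl12 in GIF/ATP4B-DTR (main −2.72) ranged from −3.62 without WT 1 to 0.23 without WT 2.

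With no filter, 24, 16 and 40 of 183 immunoglobulin genes outside the members were called in the same order, beside 2936, 2229 and 4672 of all 22451 genes. B cell genes in GIF-DTR numbered 0, and all genes 57 in GIF/ATP4B-DTR against ATP4B-DTR. With at least 10 counts in 6 samples, none of these immunoglobulin genes was left to test, so that alternative has no value. Without robust moderation, IgA axis genes numbered 0 in GIF/ATP4B-DTR against GIF-DTR. With the Y-linked covariate, genes called were 1849 in ATP4B-DTR and 438 in GIF-DTR against WT, and 23, 1 and 14 in GIF-DTR against ATP4B-DTR, GIF/ATP4B-DTR against ATP4B-DTR and GIF/ATP4B-DTR against GIF-DTR. Under it 0 of the 4 immunoglobulin genes were called in ATP4B-DTR, plasma cell genes 1 in ATP4B-DTR and 0 in GIF-DTR, B cell genes 0 in GIF-DTR, and IgA axis genes 0 in GIF/ATP4B-DTR against GIF-DTR.

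With only the 2 groups fitted, 2 of the 4 immunoglobulin genes were called in ATP4B-DTR, plasma cell genes numbered 0 for ATP4B-DTR and 2 for GIF/ATP4B-DTR, IgA axis genes 0 for ATP4B-DTR, 2 for GIF/ATP4B-DTR and 2 in GIF/ATP4B-DTR against GIF-DTR, B cell genes 0 in GIF-DTR, and all genes 1 in GIF/ATP4B-DTR against ATP4B-DTR. With DESeq2, 2 of the 4 immunoglobulin genes were called in ATP4B-DTR, plasma cell genes numbered 5 for ATP4B-DTR, 4 for GIF-DTR and 1 for GIF/ATP4B-DTR against ATP4B-DTR, IgA axis genes 2 for ATP4B-DTR and 1 for GIF-DTR, and B cell genes 1 in GIF-DTR against ATP4B-DTR. Over all genes, DESeq2 called 3970 of 14873 for ATP4B-DTR against WT. The total for GIF-DTR against WT was 3358 of 14873. DESeq2 called 383, 2.8e+02 (rounded) and 987 genes in GIF-DTR against ATP4B-DTR, GIF/ATP4B-DTR against ATP4B-DTR and GIF/ATP4B-DTR against GIF-DTR. With only the 2 groups fitted, calls over all 14889 genes against WT were 2485 for ATP4B-DTR and 3897 for GIF/ATP4B-DTR. They were 2254 for GIF-DTR against WT and 293 for GIF/ATP4B-DTR against GIF-DTR. Of 378 alternatives for the single genes tested, 278 kept call and direction, 99 lost the call and 1 reversed.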

Other observations

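Pigr is carried by epithelium. Of 8 pan-epithelial genes, edgeR called 1 higher and 1 lower in ATP4B-DTR, 0 in GIF-DTR and 3 higher in GIF/ATP4B-DTR against WT. These stand beside 21.6%, 16.8% and 33.6% of all tested genes called. Among pan-epithelial genes, Epcam rose in ATP4B-DTR (log2 fold change 0.62 ± 0.20 SE against WT, edgeR adjusted p = 0.0443) and GIF/ATP4B-DTR (0.64 ± 0.20, adjusted p = 0.0271), while Cdh1 fell in ATP4B-DTR (−0.61 ± 0.18, adjusted p = 0.0308). Krt8 and Cldn7 rose in GIF/ATP4B-DTR (0.72 ± 0.24, adjusted p = 0.0376; 2.70 ± 0.76, adjusted p = 0.0190). Cldn7 stood at 1.03 and 1.39 CPM in WT 1 and 2, against 3781 and 2422 CPM for Krt8. Each of these epithelial calls was lost on leaving out at least 1 sample. With only the 2 groups fitted, Epcam and Cdh1 in ATP4B-DTR and Krt8 in GIF/ATP4B-DTR were also lost. The Cdh1 call was lost with the Y-linked covariate too.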
